A study of Mus musculus with 4 samples.

Results

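Ghrl and 8 genes taken to lead the ghrelin cells of mouse small-intestinal organoids are described here. The 9 genes are Ghrl, Mboat4, Plb1, Enpp1, Nefm, Scgn, Cd177, Maged2 and 1500009L16Rik, out of 29161 genes in the count table. They were selected on the same measurements described below, because they stood out in cells with Ghrl at or above 1000 CPM (the gene's counts per 1000000 counts of the same cell) against the other cells of the same plate, and because they followed Ghrl from cell to cell. Their levels in that contrast are therefore a description and carry no test.

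The samples are 4 plates of single cells sorted from enteroids, organoids cultured in Matrigel (in medium with EGF, Noggin and R-spondin-1) from female CD1 mice heterozygous for a Neurog3 allele carrying eYFP (Neurog3eYFP/+). Living eYFP+ cells were sorted 1 per well and their poly(A) RNA was read with a whole-transcriptome kit that tags each well. Duodenum replicate 1 came from mice of 39 weeks, duodenum replicates 2 and 3 from mice of 12 weeks, and jejunum replicate 1 from mice of 12 weeks. Every plate carries the same reporter allele and the same culture medium, so there is no wild-type, untreated or in vivo group. The labels do not say how many animals gave a plate, so the plate is the replicate and p-values measure only the spread between plates, which may be technical.

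Ghrl encodes the precursor of ghrelin, a hormone of the stomach and upper small intestine that raises food intake and growth hormone release through the growth hormone secretagogue receptor. Ghrelin binds that receptor with high affinity only after an octanoyl chain is joined to one of its serines, a step carried out by ghrelin O-acyltransferase, the product of Mboat4. In the intestinal epithelium all hormone-secreting cells pass through a progenitor that expresses Neurog3, which is the gene the sort used.

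In the GRCm38 annotation (GENCODE M21), Ghrl (ENSMUSG00000064177) lies on chromosome 6 from 113716119 to 113719880 on the minus strand. The other genes are Mboat4 (chromosome 8, 34115030 to 34125182, plus strand), Plb1 (chromosome 5, 32232708 to 32366520, plus), Enpp1 (chromosome 10, 24637914 to 24712159, minus) and Nefm (chromosome 14, 68082590 to 68124846, minus). Scgn is on chromosome 13 (23953456 to 23991214, minus), Cd177 on chromosome 7 (24743983 to 24760311, minus), Maged2 on chromosome X (150806370 to 150814345, minus) and 1500009L16Rik on chromosome 10 (83722865 to 83762762, plus). All 9 are protein coding. Ghrl is overlapped by the antisense gene Gm26982 (447 counts in the whole table) and Nefm by Nefl on the other strand (2672 counts). Whether the counting used strand is not given in the sources used here, so reads of such pairs may not be separable.

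These genes were picked together for their levels in cells with high Ghrl. The 250 bases before the RefSeq start of each gene (GRCm38.p6) were therefore searched on both strands for 4 short motifs. The table of promoters held 7 of the 9 genes, Mboat4 and Nefm being absent from it. The motifs were CANNTG, the E-box that basic helix-loop-helix factors such as Neurog3 and Neurod1 read, TAATTA, a core read by homeodomain factors, CACTTNA, a core read by Nkx2 factors, and TATANAA, a form of the TATA box. Of 27018 promoters of this length, 66.1% held CANNTG, 10.9% TATANAA, 10.0% CACTTNA and 4.91% TAATTA. Among the 7, CANNTG was found in 3 (Ghrl, Maged2 and 1500009L16Rik), TATANAA in 2 (Cd177 and Maged2), and CACTTNA and TAATTA in 0. The hormone gene and the 2 genes with TATANAA are shown 5′ to 3′ on the strand of the gene, ending at the base before the start, with the matches to CANNTG and TATANAA in capitals. Ghrl is from chr6:113719912-113720161 (minus strand), Cd177 from chr7:24760312-24760561 (minus) and Maged2 from chrX:150814346-150814595 (minus).
Ghrl: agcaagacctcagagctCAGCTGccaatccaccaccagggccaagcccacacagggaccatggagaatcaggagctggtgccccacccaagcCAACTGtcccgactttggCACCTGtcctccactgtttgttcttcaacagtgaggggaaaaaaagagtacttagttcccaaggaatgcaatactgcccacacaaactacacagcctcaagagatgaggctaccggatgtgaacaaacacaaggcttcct
Cd177: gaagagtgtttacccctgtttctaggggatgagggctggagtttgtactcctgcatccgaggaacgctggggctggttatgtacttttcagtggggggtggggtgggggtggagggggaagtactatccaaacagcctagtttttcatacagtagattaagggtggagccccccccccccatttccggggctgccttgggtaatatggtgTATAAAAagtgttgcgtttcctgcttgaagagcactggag
Maged2: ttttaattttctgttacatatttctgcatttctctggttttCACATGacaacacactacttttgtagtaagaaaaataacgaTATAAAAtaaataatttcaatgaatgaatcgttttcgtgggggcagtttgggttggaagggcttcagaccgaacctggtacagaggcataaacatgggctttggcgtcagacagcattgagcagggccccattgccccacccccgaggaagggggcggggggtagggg
The 3 E-box matches of Ghrl began 233, 158 and 140 bases before the start. The TATANAA match began 40 bases before the start in Cd177 and 168 bases before it in Maged2. No motif was shared by most of the 7 genes, and 2 of the 3 CANNTG holders had 1 match each. A match shows only that the letters are there.

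The table held 290 cells with 202711 to 2312044 counts each. Plate totals were 23893272 counts over 72 cells (duodenum replicate 1), 38265093 over 83 (duodenum replicate 2), 37699098 over 72 (duodenum replicate 3) and 46490618 over 63 (jejunum replicate 1). The plates used the same well names, and 41 well names occurred in all 4 plates, 28 in 3, 19 in 2 and 4 in 1. The mitochondrial share of counts in Ghrl-high and other cells was 6.35% and 6.28% in duodenum replicate 1, 3.69% and 4.56% in duodenum replicate 2, 7.74% and 8.76% in duodenum replicate 3, and 5.92% and 5.76% in jejunum replicate 1.

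Ghrl was concentrated in few cells. The 16 cells with Ghrl at or above 1000 CPM, called Ghrl-high cells here, made up 5.52% of the 290 cells (exact Clopper-Pearson 95% interval 3.19 to 8.81, counting error only). They held 95.4%, 93.8%, 95.9% and 95.2% of all Ghrl counts of duodenum replicates 1, 2 and 3 and jejunum replicate 1. By plate they were 2 of 72 cells in duodenum replicate 1 (2.78%, 0.338 to 9.68), 6 of 83 in duodenum replicate 2 (7.23%, 2.70 to 15.1), 2 of 72 in duodenum replicate 3 (2.78%, 0.338 to 9.68) and 6 of 63 in jejunum replicate 1 (9.52%, 3.58 to 19.6). The 4 intervals overlap.

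The level of Ghrl within these cells covered a wide range in each plate. Duodenum replicate 1 had cells of 27340 and 1476 CPM. Duodenum replicate 2 had 29097, 15526, 14543, 13901, 6438 and 4573 CPM. Duodenum replicate 3 had 31189 and 3482 CPM, and jejunum replicate 1 had 64883, 8711, 6748, 4954, 3500 and 1284 CPM. Each plate therefore held 1 cell at or above 27340 CPM, and in jejunum replicate 1 that cell stood far above the other 5. The Ghrl-high cells had 231653 to 899983 counts, inside the range of all cells.

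**Figure D1:**
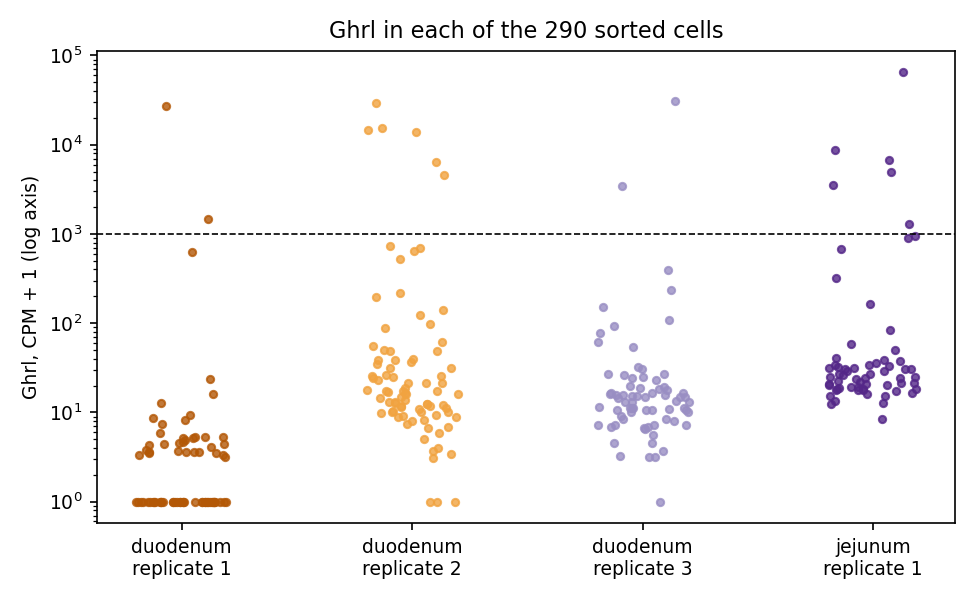
Ghrl level of every sorted cell, as CPM + 1 on a log axis, by plate; each point is 1 cell and the dashed line marks 1000 CPM. The 16 cells above the line run from 1284 to 64883 CPM, and most other cells lie under 100 CPM.

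Low Ghrl counts were nearly everywhere. At least 1 Ghrl count was found in 47.2% of cells in duodenum replicate 1, 96.4% in duodenum replicate 2, 98.6% in duodenum replicate 3 and 100% in jejunum replicate 1. In cells with high Tph1, the serotonin-synthesis gene of enterochromaffin cells, the shares were 57.1%, 100%, 100% and 100%, and the summed Ghrl level there was 2.05, 18.6, 31.0 and 20.1 CPM. Thinned to 100000 counts a cell, the share over all cells was 19.4%, 72.3%, 69.4% and 87.3%. The median depth of the Tph1-high cells was 384181, 464019, 436119 and 872913 counts, against 321534, 432369, 429935 and 678124 over all cells of the plate. The 31.0 CPM of duodenum replicate 3 includes a Tph1-high cell of 391 CPM, and the median of that class there was 10.4 CPM. A few counts of Ghrl were thus found in most cells, also those with high Tph1, and are not used here to call a cell Ghrl-positive. Their source was not tested.

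Between these low levels and the class limit lay 18 cells with Ghrl of 100 to 1000 CPM, 1, 8, 4 and 5 of them in duodenum replicates 1, 2 and 3 and jejunum replicate 1. The 3 cells just inside the limit had 1284, 1476 and 3482 CPM, and the 3 just outside had 942, 897 and 737 CPM. The 3 outside had Scgn of 2599, 3894 and 4016 CPM, and the 3 inside had 2082, 1494 and 2324 CPM. Maged2 was at 0, 0 and 2.26 CPM in the 3 outside and at 97.8, 4.32 and 26.2 CPM in the 3 inside. Scgn was thus at least as high just outside the limit as just inside it, and Maged2 was low on both sides.

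Mboat4, whose enzyme acylates ghrelin, was hardly detected. It had at least 1 count in 2 of the 16 Ghrl-high cells, at 161 CPM in the duodenum replicate 2 cell with the highest Ghrl and at 39.5 CPM in a jejunum replicate 1 cell, and in 10 of the 274 other cells. Its summed level was 0 CPM in the Ghrl-high cells of duodenum replicates 1 and 3, 28.8 in duodenum replicate 2 and 7.34 in jejunum replicate 1, against 5.63, 6.18, 0.0838 and 3.67 CPM in the other cells of duodenum replicates 1 and 3, duodenum replicate 2 and jejunum replicate 1. A sum of 0 there allows up to 6.42 CPM in duodenum replicate 1, above the level of the other cells, and up to 2.37 CPM in duodenum replicate 3 (3 counts over the summed cells). The highest single cell, at 407 CPM, was not Ghrl-high. The 3 cells outside the Ghrl-high class with 100 CPM or more included 1 peptide-high and 1 Tph1-high cell. In 14 of the 16 Ghrl-high cells Mboat4 was not detectable at this depth.

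Plb1 and Enpp1 encode enzymes at the cell surface. Phospholipase B cleaves membrane and dietary phospholipids, and the Enpp1 ecto-enzyme splits extracellular nucleotides and releases pyrophosphate. Plb1 in the Ghrl-high cells summed to 0 CPM in duodenum replicate 1, 340 in duodenum replicate 2, 18.2 in duodenum replicate 3 and 1375 in jejunum replicate 1, against 0.427, 0.559, 2.55 and 18.6 CPM in the other cells. It reached 100 CPM in 8 of the 16 Ghrl-high cells and in 5 of the 274 others, 3 of its 8 cells being in duodenum replicate 2 and 5 in jejunum replicate 1. No Ghrl-high cell of duodenum replicates 1 or 3 reached that level. Enpp1 summed to 195, 172, 0 and 89.5 CPM in the Ghrl-high cells of duodenum replicates 1, 2 and 3 and jejunum replicate 1, against 2.22, 14.2, 12.1 and 8.66 CPM. It reached 100 CPM in 6 of the 16, of which 4 were in duodenum replicate 2, and the jejunum value came from 1 cell of 389 CPM. A sum of 0 allows up to 6.42 CPM of Plb1 in duodenum replicate 1 and up to 2.37 CPM of Enpp1 in duodenum replicate 3. Neither enzyme gene was therefore detected in the Ghrl-high cells of all 4 plates.

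Scgn encodes secretagogin, a calcium-binding protein of endocrine cells, and of the 8 other genes was the one at 100 CPM or more in all 16 Ghrl-high cells. Its level in the 16 cells ran from 1494 to 8593 CPM with a median of 3950 CPM. Summed by plate it was 1662, 5252, 1947 and 5102 CPM in duodenum replicates 1, 2 and 3 and jejunum replicate 1, against 51.4, 604, 229 and 797 CPM in the other cells. The other cells had a median of 5.94 CPM but reached 8219 CPM, and 57 of the 274 had 100 CPM or more, so the classes overlap.

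Nefm, the medium chain of the neurofilaments, differed less. It summed to 381, 782, 486 and 929 CPM in the Ghrl-high cells of the 4 plates in the same order, against 167, 439, 138 and 197 CPM. The single-cell range was 0 to 2393 CPM in the Ghrl-high cells and 0 to 8019 CPM in the others, and 10 of the 16 and 68 of the 274 reached 100 CPM.

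Cd177, a surface glycoprotein best known from neutrophils, summed to 783, 983, 197 and 2001 CPM in the Ghrl-high cells, against 88.5, 129, 170 and 374 CPM in the others. In duodenum replicate 3 the values of 197 and 170 CPM were close. Maged2, a member of the melanoma antigen family, summed to 881, 1965, 151 and 785 CPM, against 15.97, 51.3, 37.9 and 45.9 CPM. It reached 100 CPM in 9 of the 16 Ghrl-high cells and in 32 of the 274 others, and its highest value, 6719 CPM, was in the duodenum replicate 2 cell with the most Ghrl. 1500009L16Rik summed to 188, 246, 0 and 359 CPM, against 0.256, 14.7, 0 and 35.7 CPM, and duodenum replicate 3 had no count of it in any cell, which allows up to 0.0796 CPM over that plate. It reached 100 CPM in 5 of the 16 Ghrl-high cells.

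With a pseudocount of 10 CPM, the log2 ratio of Ghrl-high to other cells in duodenum replicate 2 and jejunum replicate 1, the plates with at least 3 Ghrl-high cells, was 7.68 ± 0.16 for Ghrl (mean ± SD, n = 2 plates). It was 5.32 ± 0.39 for Plb1, 4.42 ± 0.83 for Maged2, 3.19 ± 0.25 for 1500009L16Rik and 2.88 ± 0.31 for Scgn. It was 2.66 ± 0.35 for Enpp1, 2.61 ± 0.32 for Cd177, 1.50 ± 0.96 for Nefm and 1.143 ± 1.13 for Mboat4. The order among 1500009L16Rik, Scgn, Enpp1 and Cd177 is within their spread over plates. Over all 4 plates Ghrl, Nefm, Scgn, Cd177 and Maged2 were higher in the Ghrl-high cells in 4 of 4, Plb1, Enpp1 and 1500009L16Rik had 1 plate each at or below 0, and Mboat4 was higher in 2 of 4.

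**Figure D2:**
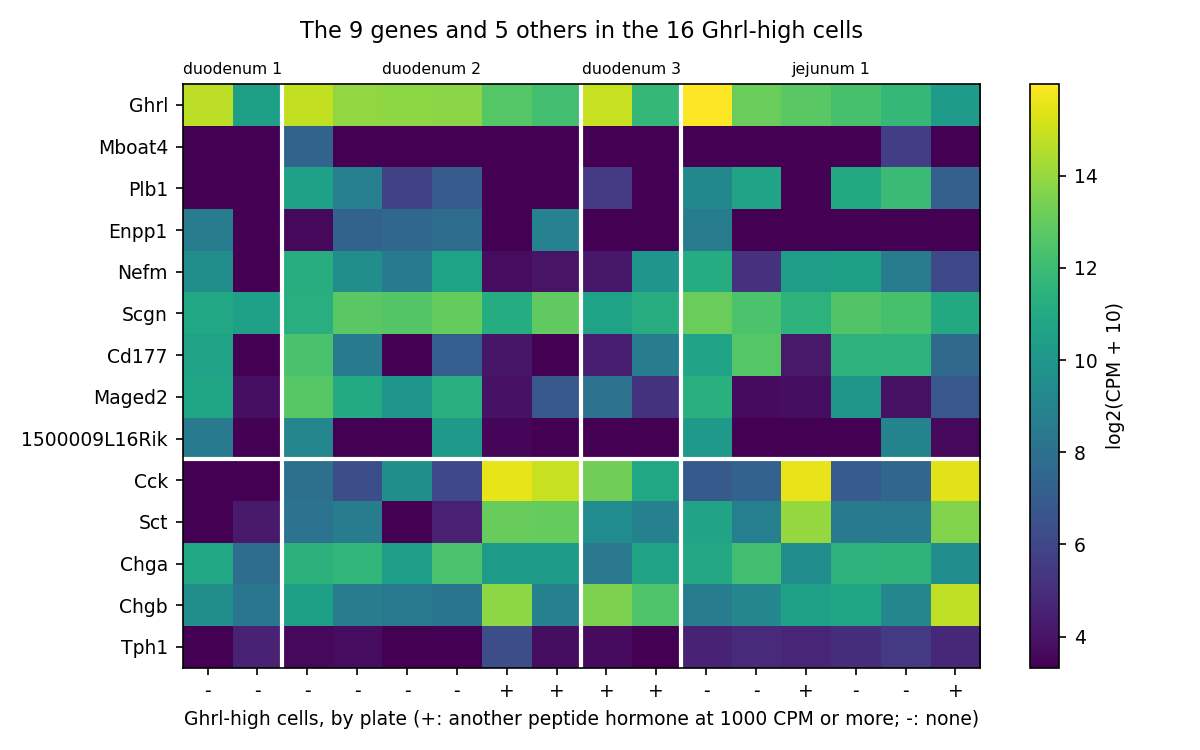
Level of the 9 genes and of 5 other hormone or granule genes in the 16 Ghrl-high cells, as log2(CPM + 10) in colour; columns are cells by plate, ordered by Ghrl, and a plus marks cells with another peptide hormone at 1000 CPM or more. Scgn is filled in every column, while Plb1, Maged2, Cd177 and 1500009L16Rik are strongest in columns without a plus.

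The Ghrl-high cells were of 2 kinds by hormone content. In 10 of them no other peptide hormone gene among Gip, Gcg, Cck, Sst, Nts and Pyy reached 1000 CPM (2, 4, 0 and 4 in duodenum replicates 1, 2 and 3 and jejunum replicate 1), and in 6 at least 1 did (0, 2, 2 and 2). All 6 had high Cck, the gene of cholecystokinin, at 1941 to 48668 CPM, and 3 of them also had high Gcg, the proglucagon gene. Tph1 reached 1000 CPM in 0 of the 16 cells. The label ghrelin cells therefore covers cells in which Ghrl is the only high hormone gene of these and cells that also carry Cck.

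The summed level of each of the 8 other genes was higher in the first kind. Summed over the 10 cells without and the 6 cells with another peptide, Plb1 was 1308 and 41.7 CPM, Cd177 2282 and 125 CPM, Maged2 1887 and 96.9 CPM, and 1500009L16Rik 463 and 0.863 CPM. Nefm was 1182 and 290 CPM, Scgn 5676 and 2916 CPM, Enpp1 139 and 70.2 CPM, and Mboat4 23.2 and 0 CPM. Ghrl itself was 22313 and 8992 CPM.

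Within each of the 2 plates that had both kinds, the summed level was again higher in the cells without another peptide, except for Enpp1 in duodenum replicate 2, where it was 128 CPM without and 230 CPM with another peptide. In duodenum replicate 2 Maged2 was 999, 2148, 2632 and 6719 CPM in the 4 cells without and 5.41 and 106 CPM in the 2 cells with Cck, with no overlap. Plb1 was 45.6, 117, 428 and 1499 CPM in the 4 cells and 0 in both others. In jejunum replicate 1 Plb1 was 590, 1685, 2062 and 3933 CPM in the 4 cells without and 0 and 136 CPM in the 2 cells with other peptides. Cd177 was 1683, 2868, 2874 and 6302 CPM there, against 7.97 and 199 CPM, also with no overlap. Maged2 overlapped in jejunum replicate 1, where 2 of the 4 cells had 3.15 and 4.74 CPM. Cd177 overlapped in duodenum replicate 2, at 0 to 5141 CPM in the 4 cells and at 0 and 7.21 CPM in the 2 with Cck. The share of all genes without overlap is not given here, so these cases are a description only. Cells are not replicates and only 2 plates held both kinds, so no test was made.

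Scgn differed less between the kinds. In duodenum replicate 2 the cells with Cck had 2257 and 7557 CPM of Scgn, and the other 4 had 2488 to 8010 CPM. In jejunum replicate 1 the 2 cells with other peptides had 2082 and 2860 CPM, below the 5041 to 8593 CPM of the other 4.

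Etv1 and Sct also differed between the kinds in these 2 plates. Etv1, an ETS transcription factor gene, was 0 to 117 CPM in the 4 cells of duodenum replicate 2 without a high peptide and 678 and 820 CPM in the 2 with high Cck. In jejunum replicate 1 it was 0 to 19.1 CPM in the 4 such cells and 2513 and 1000 CPM in the 2 with other peptides. The secretin gene Sct was 0 to 383 CPM in the 4 and 8418 and 8174 CPM in the 2 cells of duodenum replicate 2, and 337 to 1647 CPM and 16403 and 12216 CPM in jejunum replicate 1. In duodenum replicate 3, whose 2 Ghrl-high cells both had high Cck, Etv1 was 345 and 91.8 CPM and Sct 715 and 456 CPM. Of these, the Etv1 value of 91.8 CPM and both Sct values lie within the ranges of the cells without a high peptide, so the kinds overlap over all plates. These genes were singled out after their values were seen.

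The number of the 8 other genes at or above 100 CPM in a cell had a median of 3.5 (range 1 to 7) in the Ghrl-high cells and 1 (0 to 5) in the others. At least 4 of the 8 were found in 8 of 16 Ghrl-high cells (50%) and in 15 of 274 other cells (5.47%). Co-occurrence of the genes was thus neither complete in Ghrl-high cells nor absent elsewhere. A duodenum replicate 3 cell with 92.9 CPM of Ghrl had Enpp1 at 906, Nefm at 1311, Scgn at 2320, Cd177 at 289 and Maged2 at 410 CPM, and none of the 6 peptide hormone genes above 33.5 CPM. A jejunum replicate 1 cell with 32.4 CPM of Ghrl had Plb1 at 434, Scgn at 3819 and Cd177 at 3916 CPM.

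By Ghrl level, the share of cells with 100 CPM or more differed among the genes. Scgn reached 100 CPM in 11.1% of the 117 cells under 10 CPM of Ghrl, 21.6% of the 139 cells from 10 to 100, 77.8% of the 18 cells from 100 to 1000 and 100% of the 16 cells above. Nefm went from 20.5% and 22.3% to 72.2% and 62.5%, and Cd177 from 17.9% and 40.3% to 61.1% and 62.5%. Nefm and Cd177 were thus about as frequent in cells with 100 to 1000 CPM of Ghrl as in Ghrl-high cells. Plb1 was at 0%, 1.44%, 16.7% and 50%, Maged2 at 8.55%, 13.7%, 16.7% and 56.2%, and Enpp1 at 1.71%, 4.32%, 11.1% and 37.5%, with most of the step at the class limit. 1500009L16Rik was at 0.855%, 5.76%, 11.1% and 31.2%. A step at the class limit is built into the choice of the genes, which were picked for being high above it, and is no finding. The bins also mix plates that differ in depth and in the Ghrl level of their other cells.

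Within plates, the Pearson correlation of log2(CPM + 10) with Ghrl over all cells was 0.60 ± 0.10 for Scgn (mean ± SD over 4 plates), 0.49 ± 0.23 for 1500009L16Rik (3 plates), 0.47 ± 0.37 for Plb1 and 0.42 ± 0.07 for Maged2. It was 0.39 ± 0.24 for Enpp1, 0.33 ± 0.13 for Nefm, 0.30 ± 0.17 for Cd177 and 0.14 ± 0.18 for Mboat4. These correlations were part of how the genes were picked, rest largely on the few Ghrl-high cells, and share the plate and its depth. By Spearman's rho, which gives those cells less weight, the means were 0.36 for Scgn, 0.26 for Nefm and 0.05 to 0.24 for the other 6.

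Over the 6 Ghrl-high cells of duodenum replicate 2 the Pearson correlation with Ghrl was 0.94 for Plb1, 0.93 for Nefm, 0.87 for Maged2 and 0.81 for Cd177, but -0.17 for Scgn and -0.29 for Enpp1. Over the 6 of jejunum replicate 1 it was 0.07 for Plb1, 0.51 for Nefm, 0.48 for Maged2 and 0.22 for Cd177, and 0.77 for Scgn and 0.86 for Enpp1. The plates thus did not share an order of the genes within the class.

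Among cells without high Ghrl, several of the 8 other genes were higher in one endocrine class than in the other. Peptide-high cells, with Gip, Gcg, Cck, Sst, Nts or Pyy at or above 1000 CPM and Ghrl and Tph1 below, were compared with Tph1-high cells in the 3 plates with at least 3 of each. They numbered 17, 7 and 9 against 17, 13 and 25 in duodenum replicates 2 and 3 and jejunum replicate 1. This comparison holds no Ghrl-high cell, though the correlation used to pick the genes ran over these cells too. Scgn summed to 1346, 1308 and 2758 CPM in peptide-high cells of duodenum replicates 2 and 3 and jejunum replicate 1, and to 44.6, 2.43 and 48.5 CPM in Tph1-high cells. Enpp1 was 7.05, 9.56 and 15.1 CPM against 0.250, 0.173 and 0.197 CPM, Nefm 583, 406 and 393 against 378, 25.5 and 49.8 CPM, and Cd177 246, 536 and 672 against 75.6, 241 and 322 CPM. In these 4 genes every plate had the higher value in the peptide-high cells. Plb1 was also higher there in each plate, at 0.641, 30.0 and 74.1 against 0.375, 0 and 1.87 CPM. Maged2 was lower there in duodenum replicate 3, at 31.3 against 43.8 CPM. The share of all genes higher in every plate is not given here, so no reading is drawn from these directions.

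With edgeR's quasi-likelihood test on the plate sums, 14 of 10547 genes passed an adjusted p of 0.05 (0.133%), 7 higher (0.0664%) and 7 lower (0.0664%), 640 had an unadjusted p under 0.05 (6.07%), and 0 of the 8 genes that could be tested passed (Mboat4 fell to the filter on low counts). The fitted log2 differences of peptide-high minus Tph1-high cells were 6.48 ± 0.96 for Scgn (SE, adjusted p 0.238), 5.60 ± 1.53 for Enpp1 (0.613), 2.65 ± 0.77 for Nefm (0.620) and 1.37 ± 0.29 for Cd177 (0.523). Unadjusted p was under 0.05 for these 4 and for Ghrl. Plb1 had 5.18 ± 2.82 (0.916), 1500009L16Rik 3.77 ± 1.91 (0.914) and Maged2 1.54 ± 1.00 (0.928). The Plb1 difference was 7.07 without duodenum replicate 2 and 3.32 without duodenum replicate 3, and that of Maged2 was 0.99 without duodenum replicate 2 or jejunum replicate 1 and 2.45 without duodenum replicate 3. Ghrl had 2.73 ± 0.68 (0.613), with 120, 98.9 and 251 CPM against 18.6, 31.0 and 20.1 CPM, in classes both held below 1000 CPM by definition. DESeq2, which called 738 genes here (7%), called 5 of the 8, namely Scgn, Nefm, Cd177, Plb1 and Ghrl, so the call depends on the tool.

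**Figure D3:**
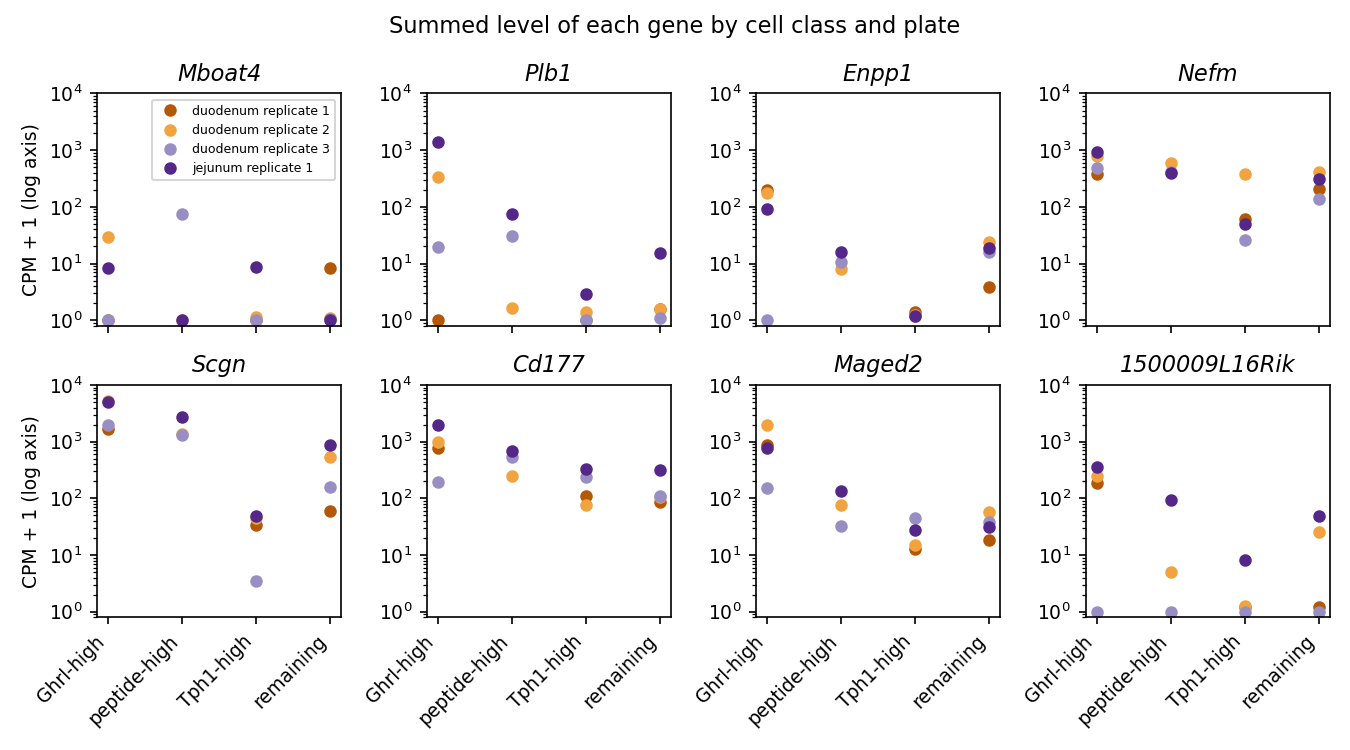
Summed level of 8 genes in Ghrl-high, peptide-high, Tph1-high and remaining cells, as CPM + 1 on a log axis; each point is 1 plate, and duodenum replicate 1 has no peptide-high cell. Scgn steps from 1662 to 5252 CPM in Ghrl-high cells to 2.43 to 48.5 CPM in Tph1-high cells, and Mboat4 has no class with a high level in every plate.

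The 169 remaining cells, with none of these hormone genes or Tph1 at 1000 CPM, had intermediate Scgn of 58.3, 539, 160 and 875 CPM in duodenum replicates 1, 2 and 3 and jejunum replicate 1. Enpp1 in the remaining cells summed to 2.84, 22.6, 15.0 and 17.8 CPM, above the sum of the peptide-high cells of each plate that had both. Its median over all plates was 0 CPM in both classes. Remaining cells had Maged2 of 17.3, 56.3, 37.8 and 30.8 CPM.

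Jejunum was compared with duodenum over whole plates, a condition the choice of genes did not use. Summed over all cells, Ghrl was 298, 915 and 623 CPM in duodenum replicates 1, 2 and 3 and 1384 CPM in jejunum. Plb1 was 0.419, 22.4 and 3.08 CPM and 118 CPM, and Cd177 102, 184 and 171 CPM and 493 CPM. Scgn was 83.0, 904 and 287 CPM and 1113 CPM, and 1500009L16Rik 3.93, 29.6 and 0 CPM and 59.3 CPM. For these genes jejunum had the highest of the 4 plates. Nefm, Enpp1 and Maged2 were highest in duodenum replicate 2 and Mboat4 in duodenum replicate 3. The share of all genes highest in jejunum is not given here, so the order of the plates is a description only.

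The edgeR quasi-likelihood test of jejunum minus duodenum called 0 of 19329 genes (0%), 819 having an unadjusted p under 0.05, while DESeq2 called 731. Of the 9 genes 0 passed and 2 had an unadjusted p under 0.05, Plb1 with a log2 difference of 3.77 ± 1.45 (SE, adjusted p 0.934) and Cd177 with 1.68 ± 0.51 (0.934). Ghrl had 1.16 ± 0.66 (0.934), Scgn 1.38 ± 1.02 (0.934) and 1500009L16Rik 2.44 ± 2.04 (0.942). The estimates of Enpp1, Maged2, Nefm and Mboat4 lay within ± 0.28 of 0 with standard errors of 0.70 to 1.85. Without duodenum replicate 2 the Plb1 difference was 5.98 (edgeR, adjusted p 0.0432), that of Scgn 2.53 and that of 1500009L16Rik 5.00, and without duodenum replicate 1 that of Scgn was 0.89. With 1 jejunum plate, tissue and plate cannot be told apart. The groups also differ in age, since duodenum replicate 1 was of 39 weeks and the jejunum plate of 12 weeks. The fit held no term for age. A whole-plate sum alone does not tell fewer cells of a type from less RNA per cell. The counts of Ghrl-high cells and the levels within them are given separately.

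Within Ghrl-high cells, the plates with at least 3 such cells were 1 of each tissue, which allows no test. Duodenum replicate 2 and jejunum replicate 1 had Ghrl of 13307 and 17979 CPM, Scgn of 5252 and 5102 CPM, Plb1 of 340 and 1375 CPM and Maged2 of 1965 and 785 CPM. With the plates of 2 Ghrl-high cells added, a setting chosen after seeing the data, edgeR called 0 of 9690 genes (0%) and 0 of the 9. Plb1 had 3.62 ± 1.40 (SE, unadjusted p 0.0098, adjusted p 1.00) and Ghrl 0.48 ± 0.41 (adjusted p 1.00). Without duodenum replicate 2 the Plb1 difference was 7.33 (edgeR, adjusted p 0.640).

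The duodenum plate of 39 weeks was compared with the 2 of 12 weeks. It had the lowest whole-plate level of the 3 for Ghrl (298 against 915 and 623 CPM), Scgn (83.0 against 904 and 287 CPM), Plb1 (0.419 against 22.4 and 3.08 CPM) and Cd177 (102 against 184 and 171 CPM), and likewise for Enpp1 and Maged2. Mboat4, Nefm and 1500009L16Rik lay between the other plates. The share of all genes lowest in this plate is not given here, and the median fitted log2 difference over all genes was -0.27. EdgeR's quasi-likelihood test called 0 of 18480 genes (0%), 1412 having an unadjusted p under 0.05. The fitted log2 differences, 39 minus 12 weeks, were -2.96 ± 0.82 for Scgn (SE, adjusted p 0.612), -1.51 ± 0.51 for Ghrl (0.640) and -5.02 ± 1.99 for Plb1 (0.643), the 3 genes with an unadjusted p under 0.05. The other 6 ran from -1.99 to 0.30. DESeq2 called these 3 genes among 920 (4.98%), with an adjusted p of 1.16e-04 for Scgn, 0.0264 for Ghrl and 0.0247 for Plb1. With 1 plate of 39 weeks, age and plate cannot be told apart, and this plate also had the fewest counts and 0 peptide-high cells.

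**Figure D4:**
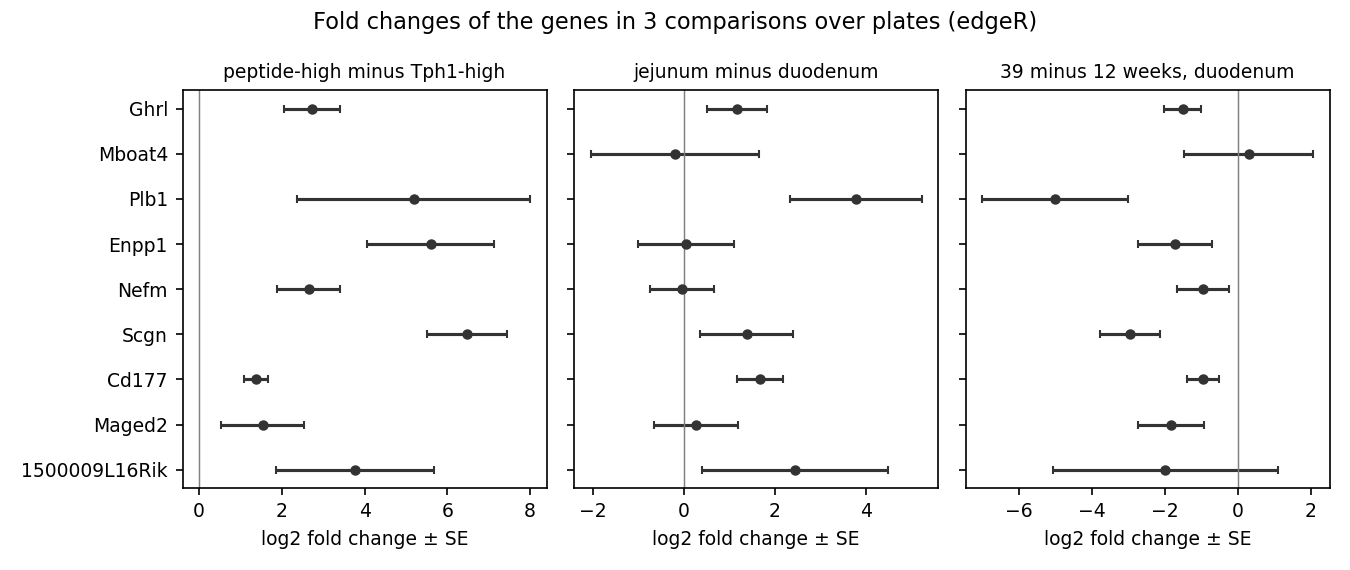
Fitted log2 fold changes (points) with standard errors (bars) of the 9 genes for peptide-high minus Tph1-high cells (3 plates; Mboat4 not tested), jejunum minus duodenum (1 against 3 plates) and 39 minus 12 weeks in duodenum (1 against 2 plates), by edgeR. Scgn has 6.48 in the first panel and -2.96 in the last, and no gene passes an adjusted p of 0.05.

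For other genes of the pathway, lists of genes were read in the contrast of Ghrl-high against other cells of duodenum replicate 2 and jejunum replicate 1. EdgeR tested 13320 genes and called 1 (0.00751%), which was Ghrl, the gene that defined the classes, while DESeq2 called 39 higher (0.293%) and 337 lower (2.53%). At an unadjusted p under 0.05, edgeR had 146 genes higher (1.1%) and 756 lower (5.68%). The median fitted log2 difference over all genes was -1.11. The counts of the lists below are set beside these shares and carry no further reading, since the contrast chose the 9 genes.

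Of the list for ghrelin processing and acylation, 0 of 10 genes tested passed with edgeR or DESeq2. Cpe, the carboxypeptidase that trims prohormones, was 1484 and 1214 CPM in the Ghrl-high cells of duodenum replicate 2 and jejunum replicate 1 against 718 and 870 CPM in the others, and was the 1 gene higher at an unadjusted p under 0.05. Pcsk1, the prohormone convertase that cuts proghrelin, was 611 and 719 CPM against 351 and 478 CPM. Scg5, a convertase chaperone, was 141 and 381 CPM against 146 and 222 CPM, and the thioesterase gene Lypla2 126 and 145 CPM against 86.9 and 114 CPM.

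Of 19 tested genes that handle medium and long chain fatty acids, which supply the acyl chain of ghrelin, 0 passed with either tool. Dbi, an acyl-CoA binding protein, was 308 and 273 CPM against 868 and 802 CPM and was the 1 gene lower at an unadjusted p under 0.05. The fatty acid binding protein gene Fabp5 was 272 and 611 CPM against 670 and 298 CPM, in opposite directions in the plates. Hadha and Cpt2, of mitochondrial fatty acid oxidation, were 177 and 165 CPM against 268 and 217 CPM, and 74.95 and 165 CPM against 128 and 145 CPM.

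Of 12 tested receptors and ligands named for ghrelin cells, 0 passed with edgeR, and DESeq2 called 1 higher and 3 lower. Ffar2, a short-chain fatty acid receptor, was 398 and 539 CPM against 304 and 459 CPM. Ffar3, its relative, was 94.8 and 71.0 CPM against 0.140 and 6.82 CPM. Ffar4, the long-chain fatty acid receptor, was 53.1 and 49.6 CPM against 5.62 and 9.96 CPM. Counted over all plates, each of Ffar3 and Ffar4 reached 100 CPM in 3 Ghrl-high cells. At least 1 of the 3 was in duodenum replicate 3, where the Ghrl-high cells summed to 159 CPM of Ffar3 and 131 CPM of Ffar4. The somatostatin receptor gene Sstr5 was 87.9 and 50.2 CPM against 19.7 and 40.8 CPM.

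Of 20 tested endocrine transcription factor genes, 0 passed with edgeR and DESeq2 called 0 higher and 3 lower. At an unadjusted p under 0.05 with edgeR, 3 were higher (Etv1, Isl1 and Prox1) and 3 lower (Lmx1a, Neurog3 and Fev). Isl1, a LIM homeodomain factor, was 372 and 496 CPM against 162 and 115 CPM, and Etv1 338 and 453 CPM against 62.0 and 107 CPM. Fev, a factor of serotonin cells, was 953 and 812 CPM against 1335 and 1513 CPM. Neurod1, a general endocrine factor, was 114 and 522 CPM against 343 and 316 CPM. The Etv1 level came mainly from Ghrl-high cells with another peptide hormone. Those had 678 and 820 CPM in duodenum replicate 2 and 2513 and 1000 CPM in jejunum replicate 1. The cells without had 0 to 117 and 0 to 19.1 CPM. In duodenum replicates 1 and 3 Etv1 summed to 0 and 223 CPM in Ghrl-high cells against 51.1 and 34.4 CPM.

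Of 18 tested genes of granules and exocytosis, 0 passed with edgeR, and DESeq2 called 0 higher and 1 lower. At an unadjusted p under 0.05 with edgeR, 5 were higher (Scg2, Cpe, Cacna1a, Kcnk16 and Stx1a) and 3 lower (Chgb, Chga and Rab3c). Chgb, the granule protein chromogranin B, was 3807 and 8122 CPM against 39173 and 43700 CPM. In the 10 Ghrl-high cells without another peptide it was 288 to 1712 CPM, and in the 6 with another peptide 469 to 28385 CPM. Chga, chromogranin A, was 2300 and 2144 CPM against 3872 and 6972 CPM, and Scg2, secretogranin II, 1758 and 1081 CPM against 402 and 382 CPM. Scg2 was at 0 to 11.3 CPM in the 4 Ghrl-high cells of duodenum replicate 2 without Cck and at 7377 and 471 CPM in the 2 with it.

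**Figure D5:**
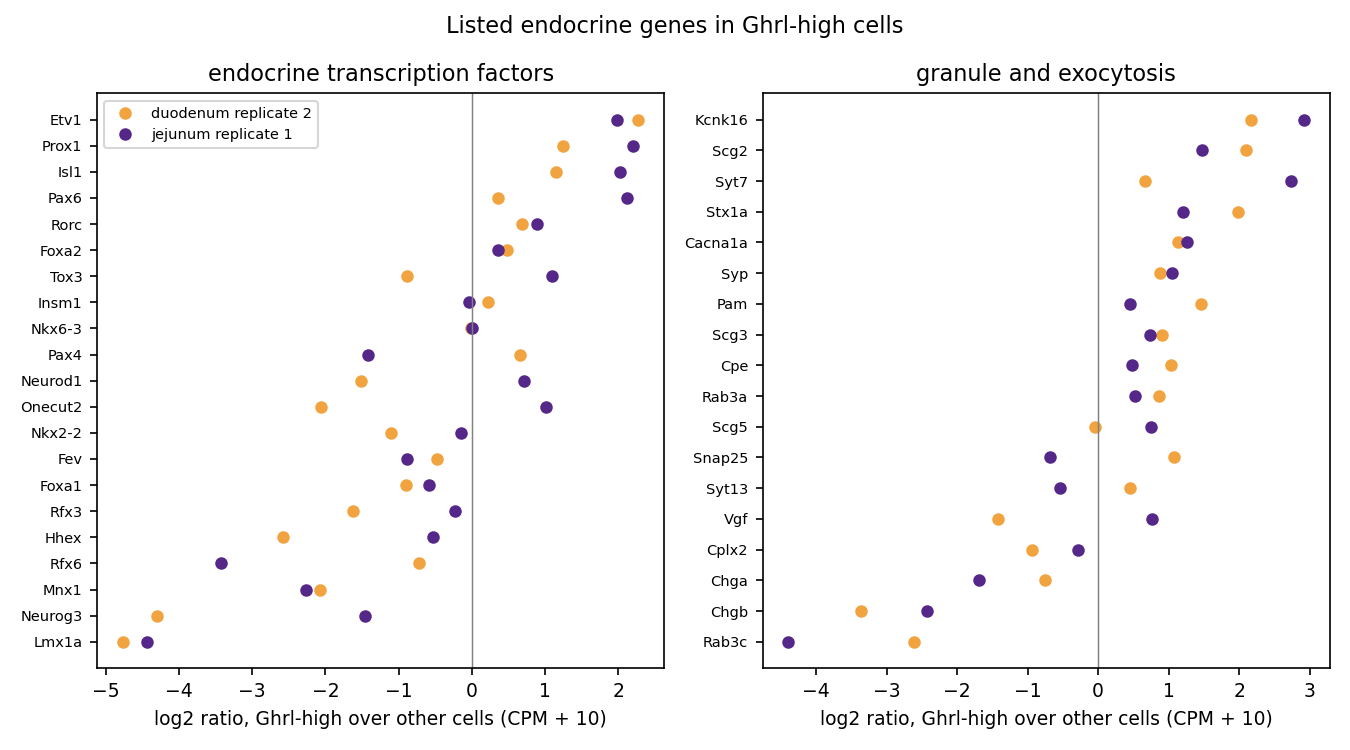
Log2 ratio of Ghrl-high to other cells (with 10 CPM added) for listed transcription factor genes and granule genes; each point is 1 plate, duodenum replicate 2 or jejunum replicate 1. Etv1 lies at 2.27 and 1.98, mainly from Ghrl-high cells with another peptide hormone, and Lmx1a lowest among the factors drawn at -4.77 and -4.44.

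Of 15 tested relatives of the 9 genes, 0 passed with either tool. Ly6e, from the same surface protein superfamily as Cd177, was 1692 and 1180 CPM against 563 and 415 CPM, the 1 gene higher at an unadjusted p under 0.05. Maged1, the closest listed relative of Maged2, was 472 and 233 CPM against 259 and 267 CPM, in opposite directions. Lpcat3, an acyltransferase related to Mboat4, was 156 and 110 CPM against 83.8 and 74.0 CPM, and Soat1 137 and 58.4 CPM against 51.1 and 108 CPM.

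Markers of other cell types were present in the Ghrl-high cells. The 12 goblet and Paneth markers summed to 5237, 8130, 4346 and 11972 CPM in the Ghrl-high cells of duodenum replicates 1, 2 and 3 and jejunum replicate 1. In the remaining cells they summed to 24061, 15898, 19068 and 21181 CPM. The peptide-high cells of duodenum replicates 2 and 3 and jejunum replicate 1 had 7128, 2632 and 2035 CPM. Single Ghrl-high cells had 722 to 31367 CPM. Tff3, the trefoil peptide of goblet cells, alone averaged 7203 CPM in the Ghrl-high cells of both main plates, most of the sum there. Fcgbp averaged 1285, Defa24 726 and Lyz1 413 CPM. The other markers were at 0 to 168 CPM, among them Muc2 at 15.6 and Clca1 at 0 CPM. Of the 11 tested, 4 had a fitted log2 difference from the other cells above 0 and 7 below 0. DESeq2 called 0 higher and 2 lower. The 8 peptide hormone markers summed to 4.28, 21500, 44679 and 27879 CPM in the Ghrl-high cells of duodenum replicates 1, 2 and 3 and jejunum replicate 1. The peptide-high cells of duodenum replicates 2 and 3 and jejunum replicate 1 had 48341.5, 66930 and 161047 CPM. The 8 enterochromaffin markers summed to 1433, 1635, 2529 and 4680 CPM in the Ghrl-high cells against 9949, 14120, 14273 and 18887 CPM in Tph1-high cells. The 3 tuft markers were at 0 in all 4 plates, the 6 blood and stromal markers at 0 to 0.880 CPM, and the 6 enterocyte markers at 55.6 to 354 CPM. The 6 progenitor markers summed to 82.5 to 402 CPM, the 5 stem cell markers to 3.96 to 89.8 CPM and the 5 cycling markers to 8.10 to 122 CPM. The part of these markers in the values above was not tested.

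By the same Pearson correlation in duodenum replicate 2 and jejunum replicate 1, 11018 genes with at least 5 counts in at least 10 cells were ranked for likeness to Ghrl, which itself takes rank 1. Plb1 took rank 2 (mean r 0.72), Scgn 3 (0.60), Enpp1 11 (0.43), Maged2 12 (0.42), Nefm 24 (0.37), 1500009L16Rik 28 (0.35) and Cd177 102 (0.28). Mboat4 had too few counts to be ranked. These correlations were part of how the genes were picked, so their high ranks were built in and are no finding. Of the 10 most alike genes outside the 9, 9 were Tm4sf4 (0.49), Cdkn1a (0.48), Ffar4 (0.47), Slc14a2 (0.47), Kif5c (0.47), Apln (0.45), Acot7 (0.41), Krt20 (0.41) and Kcnk16 (0.41). Tm4sf4, a tetraspanin-like membrane protein, reached 100 CPM in all 16 Ghrl-high cells and in 145 of the 274 others. Cdkn1a, a cell cycle inhibitor, did so in 15 of the 16 and 138 of the 274, and summed to 9631, 3894, 1287 and 5200 CPM in the Ghrl-high cells of duodenum replicates 1, 2 and 3 and jejunum replicate 1 against 501, 899, 279 and 442 CPM. It was higher in all 4 plates. Apln, the precursor of apelin, was at or above 100 CPM in only 4 of the 16 and in 4 of the 274.

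By the smaller of the 2 plate ratios, the 10 highest genes outside the 9 were Tril, Rtn1, Avpr1b, Gm26871, Apln, Fxyd2, Mptx1, Acot7, Trank1 and Emp2. Each reached 100 CPM in 2 to 6 of the 16 Ghrl-high cells. In the Ghrl-high cells of duodenum replicates 1 and 3 (2 cells each), Rtn1, Gm26871, Fxyd2 and Trank1 were at 0 CPM. Avpr1b was there at 0 and 0.791 CPM and Mptx1 at 0 and 3.16 CPM. Of these plates, Apln and Acot7 were higher than in the other cells only in duodenum replicate 1. Tril and Emp2 were so only in duodenum replicate 3. Tril was 274 and 96.8 CPM in duodenum replicate 2 and jejunum replicate 1 against 16.8 and 0.139 CPM, and Avpr1b, a vasopressin receptor, 88.3 and 93.0 CPM against 0.643 and 0.209 CPM. The 10 lowest were Gip, Afp, Reg4, Scn3a, Vim, Lmx1a, Fxyd6, Tph1, Il17re and Ptgr1. Gip, the incretin gene, was 10.1 and 145 CPM against 2827 and 16379 CPM. Reg4 was 58.3 and 297 CPM against 4717 and 11934 CPM, and Vim, the intermediate filament vimentin, 5.67 and 40.2 CPM against 653 and 1469 CPM. Tph1 was 17.4 and 20.5 CPM against 520 and 1868 CPM. In duodenum replicate 3 Reg4 was higher in the Ghrl-high cells, at 1314 against 1030 CPM.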

How the data were processed

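The deposited file is 1 table of raw counts for 29161 Ensembl genes in 290 cells of 4 plates, per the file headers and values; 29120 IDs were matched to symbols and 41 were not. Per the submitters' processing notes, bcl2fastq 2.17.1.14, cutadapt 1.10, Bowtie2 2.2.8, STAR 2.5.3a, UMI-tools 0.4.4, HTSeq 0.6.1 and the mm10 build were used, with no role or order given. Values reach 643177 and 27.9% of the values above 0 are 1. Whether they are molecules or reads is not given in the sources used here, so intervals and floors cover counting error only.

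The members and lists were chosen with earlier results of these data known. Cells were classed by CPM of their own counts (limit 1000 CPM for Ghrl, 6 peptide genes and Tph1); the authors' cells were all kept, no doublet caller was run, and a well with 2 hormones may hold 2 cells. Counts were summed per plate and class (at least 3 cells) and tested with edgeR 4.0.16 in R 4.3.3 (quasi-likelihood, TMM, filterByExpr, plate as a block where classes were compared, Benjamini-Hochberg threshold 0.05). The standard error is the fold change divided by the square root of F. DESeq2 1.42.0 was an alternative. The tests were tested on simulated data. Log2 ratios and correlations used 10 CPM as pseudocount. Thinning was to 100000 counts. Every gene of the set is named in each comparison. From each list, those past the threshold were to be named, or with none the 4 with the highest mean CPM in Ghrl-high cells. The 10 genes most like Ghrl, and the 10 with the highest and the 10 with the lowest ratios among genes with at least 20 CPM, were also named. Of these, 1 gene is not reported here.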

Additional observations from a re-analysis of the deposited data

How the results depend on the processing

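The count of genes called in Ghrl-high against other cells was 1 with edgeR and stayed at 1 with DESeq2's size factors, which moved the median fitted log2 difference of all genes from -1.11 to -0.91, and without the plate term (no replicate block). It was 376 with DESeq2, 7 without a filter on low counts, 3 at a class limit of 500 CPM and 8 at 2000 CPM. In settings chosen after seeing the data it was 16 with at least 2 cells per class and plate, and 15 (5 higher, 10 lower) for Ghrl-high cells without another peptide hormone. Leaving out either plate left no degrees of freedom, so no count was made. For peptide-high against Tph1-high cells the count of 14 became 738 with DESeq2, 25 without the filter, 5 at 2000 CPM, 18 without the replicate block and 0 to 4 with 1 plate left out. For jejunum against duodenum the count of 0 became 731 with DESeq2, 9 without the filter and 0 to 10 with 1 duodenum plate left out. For 39 against 12 weeks it became 920 with DESeq2 and 226 without the filter, where Scgn had an edgeR adjusted p of 0.0120. For jejunum against duodenum in Ghrl-high cells with at least 2 cells a plate, it became 276 with DESeq2 and 0 to 2 with 1 plate left out. The cause of these shifts was not tested.

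Signs changed only for small differences between jejunum and duodenum. Over whole plates with 1 duodenum plate left out, the log2 difference of Enpp1 ran from -0.33 to 0.68, that of Maged2 from -0.12 to 1.40, that of Nefm from -0.30 to 0.63 and that of Mboat4 from -0.56 to 0.14. In Ghrl-high cells Enpp1 was 0.15 without duodenum replicate 1 and 0.35 without duodenum replicate 2, where Maged2 was 1.02. The median over the 8 genes of the mean correlation with Ghrl was 0.40 by Pearson, 0.20 by Spearman and 0.40 after thinning. No paired analysis was possible because jejunum and duodenum share only 1 replicate number, and the class comparisons already hold the plate as a block. The limits are the 16 Ghrl-high cells, 1 jejunum plate, 1 plate of 39 weeks, and Mboat4 counts in only 12 of the 290 cells.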
